A study of Homo sapiens with 156 samples.

Results

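GSK477 (GSK3510477) was given at 10000 nM to MV411, a human acute myeloid leukemia cell line with a rearranged KMT2A gene, and RNA was sequenced after 2 and 4 days. The response described here rests on 8 libraries, 2 GSK477 libraries and 2 DMSO libraries on each day, out of 52 MV411 libraries and 156 libraries in the whole series. They were taken by compound, dose and day alone, and no measured value entered the choice. The other groups used here are GSK032 (GSK3685032) at 10000 and 3.2 nM and decitabine (DAC) at 10000 and 3.2 nM, all on day 4, GSK862 (GSK3484862) at 1000 nM on days 2 and 4, DMSO on days 1 and 6, and the GSK477 and DMSO libraries of days 2 and 4 in THP1 and NOMO1, also acute myeloid leukemia lines. Every group had 2 libraries. The cells had been plated 24 h before treatment, and the labels do not say whether libraries of a group come from separate cultures, so the p-values reflect no more than library-to-library spread, which may be technical. The 2 day 4 GSK477 libraries of MV411 carry no replicate number and are called a and b.

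The series concerns DNMT1, which restores methylation on the new strand after DNA is replicated. When DNMT1 is blocked, methylation is lost as cells divide, and genes normally silenced by methylation, germline genes among them, become expressed. GSK477 stands in the design as the weak analog of the DNMT1 inhibitors, so that what it changes can be read against what they change. Cells also have a separate defence against reactive chemicals: the transcription factor NRF2 accumulates when its partner KEAP1 is modified, binds antioxidant response elements in DNA with a small MAF protein, and raises genes for glutathione synthesis, thioredoxin, NADPH supply and quinone reduction.

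Levels are FPKM, fragments per kilobase of transcript scaled to library depth, as the authors deposited them. Fold changes are differences on the log2(FPKM + 0.5) scale, which understates the change of low genes, and are the mean of the day 2 and day 4 differences unless a day is named. Of 59939 genes, 22007 reached 1 FPKM in at least 2 of the 52 libraries and were tested with limma, with Benjamini-Hochberg adjusted p-values over all of them. A gene is said to have passed, and to have risen or fallen, when its adjusted p was under 0.05, and is said to be called when its log2 change was also at least 1 in size. Myeloid markers were present in all 8 libraries, CD33 at 69.7 to 93.9 FPKM and SPI1 at 69.9 to 95.5 FPKM. Summed FPKM, in units of 1000, ran from 1611 to 2286 over the 8 libraries, and the scale estimated from low values corresponded to about 41.8 to 80.8 M fragments. No pair of MV411 libraries held identical values.

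Promoter windows of 3 genes that rose, PIR, GCLM and TXNRD1, are shown because each holds the letters of the antioxidant response element core. The motif searched was TGACNNNGC on either strand, which reads GCNNNGTCA on the other strand, and its matches are in capitals. Each window runs from 250 bases before to 50 bases after the annotated start, 5′ to 3′ on the gene's strand, from RefSeq on GRCh38.p14.
PIR, chrX:15493284-15493583, minus strand: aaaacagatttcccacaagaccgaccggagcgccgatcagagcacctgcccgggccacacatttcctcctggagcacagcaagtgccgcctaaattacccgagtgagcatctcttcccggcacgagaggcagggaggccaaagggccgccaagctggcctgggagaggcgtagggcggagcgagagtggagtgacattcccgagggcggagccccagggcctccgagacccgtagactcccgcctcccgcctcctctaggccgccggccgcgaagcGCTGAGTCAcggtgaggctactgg
GCLM, chr1:93909381-93909680, minus strand: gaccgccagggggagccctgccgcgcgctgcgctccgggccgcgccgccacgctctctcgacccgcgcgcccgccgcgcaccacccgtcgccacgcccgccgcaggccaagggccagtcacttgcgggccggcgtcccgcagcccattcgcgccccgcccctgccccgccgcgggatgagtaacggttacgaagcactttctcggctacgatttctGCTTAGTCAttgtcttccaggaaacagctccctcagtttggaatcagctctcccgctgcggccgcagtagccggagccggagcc
TXNRD1, chr12:104286782-104287081, plus strand: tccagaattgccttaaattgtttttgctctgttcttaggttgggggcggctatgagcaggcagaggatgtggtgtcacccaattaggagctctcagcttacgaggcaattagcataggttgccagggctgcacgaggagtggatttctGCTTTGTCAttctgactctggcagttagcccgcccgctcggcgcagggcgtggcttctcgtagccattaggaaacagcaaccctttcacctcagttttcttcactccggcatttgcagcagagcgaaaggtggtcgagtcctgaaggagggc

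The match began at position 27 after the start in PIR, at −34 in GCLM and at −102 in TXNRD1. Of 27305 genes with such windows, 4384 held the motif in at least 1 (16.1%). Of 13 genes of the NRF2 list whose windows were searched, 4 had a match (30.8%), and 1 of those, ME1, did not pass. Other genes of the list, GSR among them, did not enter this count. PIR is not on that list, and the 3 windows were picked for their matches. Windows of NQO1, OSGIN1, GCLC, SRXN1 and FTL, which also rose, held none of these letters. A match is a string of letters in a window, and no binding was measured.

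The first question is whether GSK477 gave the RNA readout of DNMT1 inhibition. DNMT1 activity, DNMT1 protein and DNA methylation are not in the data used here. RNA levels of the methylation machinery do not show whether the enzyme was inhibited. DNMT1 itself was at 126 and 143 FPKM in the day 2 GSK477 libraries and at 151 and 145 FPKM in those of day 4, against 131 and 140 FPKM in DMSO of day 2 and 128 and 141 FPKM in DMSO of day 4. The groups overlapped on day 2, and on day 4 both GSK477 libraries lay above both DMSO libraries. The log2 change over both days was +0.07 (95% interval −0.07 to 0.20, adjusted p = 0.888). UHRF1, which guides DNMT1 to freshly replicated DNA, changed by +0.07 (adjusted p = 0.943), and the de novo methyltransferases DNMT3A and DNMT3B by −0.12 and −0.26 (adjusted p = 0.874 and 0.169). Of 19 tested genes of the methylation machinery, 0 passed.

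No germline or cancer-testis gene passed. Of 33 tested, 0 rose and 0 fell, and their median log2 change was 0.01, against 0.00 over all genes tested. Some members, such as PNMA5, were near 0 FPKM with GSK477 and DMSO and were tested only through groups of other compounds. For those members a fall could not show. MAGEA4, a cancer-testis antigen gene on the X chromosome, was at 1.31 and 1.04 FPKM in GSK477 libraries of day 4, against 1.1 and 1.2 FPKM in DMSO libraries of day 4. Its change over both days was −0.06 (95% interval −0.39 to 0.28). The same gene was at 147 and 138 FPKM with 1000 nM GSK862 and at 151 and 136 FPKM with 10000 nM GSK032 on day 4.

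A further 4 genes, known from earlier results of these data to respond to GSK032, were also near their DMSO levels on day 4. GSK862, GSK032 and DAC libraries lay above both. These genes and MAGEA4 were picked for that response, so the height of the GSK032 libraries follows from the choice. Only the levels with GSK477 beside DMSO are a result here. PNMA5, a paraneoplastic antigen gene, was at 0.20 and 0.10 FPKM with GSK477, 72.6 and 68.0 FPKM with 1000 nM GSK862, 99.3 and 94.2 FPKM with GSK032, 9.37 and 8.67 FPKM with DAC, and 0.24 and 0.19 FPKM with DMSO. TKTL1, a transketolase-like gene, was at 1.25 and 0.68 FPKM with GSK477, against 0.68 and 0.61 FPKM with DMSO. ZNF595, a zinc finger gene, was at 0.16 and 0.14 FPKM with GSK477, against 0.10 and 0.18 FPKM with DMSO. IFI27, an interferon-induced gene, was at 1.51 and 0.62 FPKM with GSK477, against 1.58 and 0.93 FPKM with DMSO. For PNMA5, ZNF595 and IFI27 the GSK477 and DMSO libraries of day 4 overlapped. For TKTL1 both GSK477 libraries lay above both DMSO libraries, the nearest pair being at 0.6838 and 0.6832 FPKM. All 4 genes were low in both groups, so small changes could not be told from none.

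**Figure D1:**
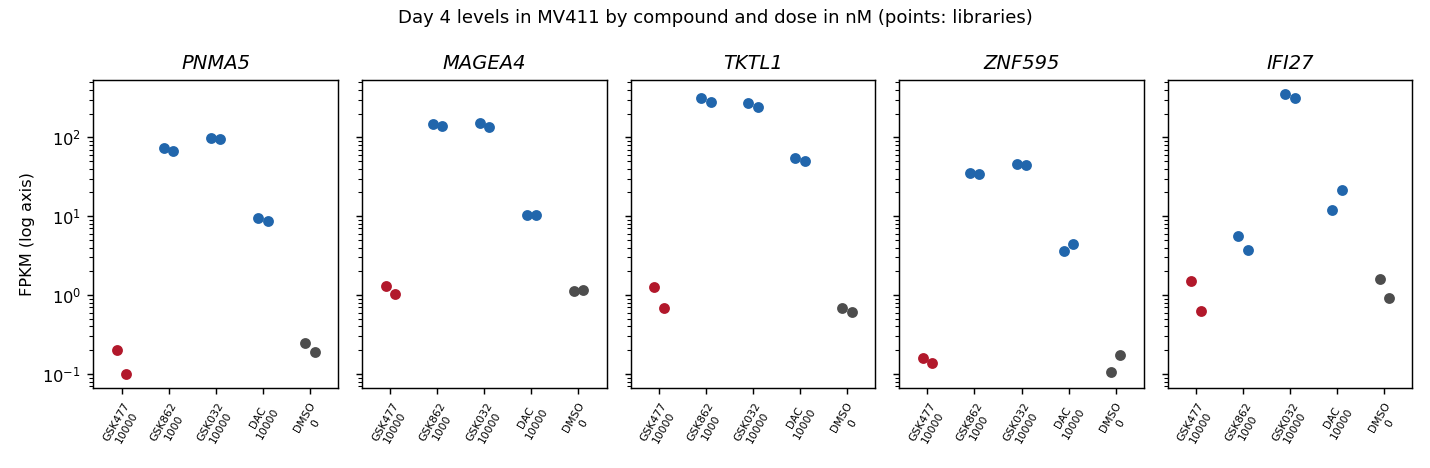
Level in FPKM (log axis) of 5 genes picked because they respond to GSK032, in day 4 MV411 libraries, 1 point per library, by compound and dose. GSK477 points lie at or near the height of the DMSO points, for MAGEA4 at 1.31 and 1.04 FPKM, while GSK032 at 10000 nM reaches 151 and 136 FPKM for that gene.

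GSK477 changed few genes relative to DMSO. Over both days, 8 genes were called higher (0.0364% of those tested) and 51 lower (0.232%), while 73 rose (0.332%) and 283 fell (1.29%). At an unadjusted p under 0.05 there were 2033 genes. The 3 protein-coding genes called higher were PIR, NQO1 and OSGIN1, and the other 5 were MIR744 and, named here after their values were seen, MIR1225, MIR3909, RNA5SP115 and a locus without a symbol. MIR744 was at 1.77, 0.89, 4.34 and 2.55 FPKM with GSK477 and was listed at 0 in the 4 DMSO libraries of days 2 and 4, and its call was lost under 12 of 15 alternatives tried. The number that rose was 37 without day 4 library b of GSK477, 37 without day 4 replicate 2 of DMSO and 39 without day 2 replicate 1 of DMSO, and the number that fell was 169 with libraries rescaled to an equal sum of FPKM. With the spread taken from the 8 libraries alone and day as covariate, the fold changes stayed as they are, 0 genes rose and 1 fell, IGLC2, with 2014 genes at an unadjusted p under 0.05. In that fit the counts of every gene list described below were thus 0 over both days. The cause of that loss was not tested.

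The protein-coding genes called higher are described first, then the NRF2 list, to which OSGIN1 belongs and PIR and NQO1 do not. PIR, an iron-binding nuclear protein gene (hg38, chromosome X, 15384799 to 15493564), was at 8.37 and 10.6 FPKM with GSK477 on day 2 and at 4.95 and 6.68 FPKM on day 4, against 2.25 and 2.42 FPKM with DMSO on day 2 and 1.51 and 1.25 FPKM on day 4. All 4 GSK477 libraries lay above all 8 DMSO libraries of days 1, 2, 4 and 6. The change was +1.77 ± 0.13 (SE, limma adjusted p = 3.55e-09).

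NQO1, the NADPH-dependent quinone reductase (chromosome 16, 69706996 to 69726951), was at 93.3 and 107 FPKM with GSK477 on day 2 and at 45.2 and 71.4 FPKM on day 4. DMSO libraries held 26.4 and 33.7 FPKM on day 2 and 20.6 and 15.4 FPKM on day 4. Both groups were lower on day 4 than on day 2, and within each day the groups did not overlap. DMSO of day 1, at 36.8 and 49.2 FPKM, overlapped the GSK477 libraries of day 4. The change was +1.69 ± 0.18 (adjusted p = 5.47e-07). OSGIN1, an oxidative stress-induced growth inhibitor gene, was at 4.22, 4.21, 2.18 and 2.97 FPKM with GSK477, against 1.77, 0.98, 1.37 and 1.04 FPKM with DMSO, and changed by +1.1 ± 0.19 (adjusted p = 6.9e-04).

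Of the 20 genes of the NRF2 list 19 were tested, 10 rose, OSGIN1 among them, 1 fell and 8 did not pass. Their median change was +0.49, against 0.00 over all genes tested. In glutathione synthesis, GCLM and GCLC, the modifier and catalytic subunits of glutamate-cysteine ligase, rose by 0.59 and 0.51. GCLM was at 24.1, 26.8, 18.1 and 21.3 FPKM with GSK477, against 15.0, 17.9, 13.9 and 12.3 FPKM with DMSO. The groups did not overlap within a day or over both days.

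GSR, which returns oxidized glutathione to its reduced form, rose by 0.56. In the thioredoxin branch, TXNRD1, thioredoxin reductase, rose by 0.50 (adjusted p = 1.05e-04), and SRXN1, sulfiredoxin, by 0.50. TXNRD1 was at 153, 158, 116 and 133 FPKM with GSK477, against 104, 115, 90.7 and 84.8 FPKM with DMSO. For NADPH supply, PGD of the pentose phosphate pathway rose by 0.64. Not all members of these branches passed: ME1, TKT and TALDO1 did not, nor did TXN, thioredoxin.

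Iron storage moved with these genes. FTL, ferritin light chain, was at 7035, 6012, 3874 and 6029 FPKM with GSK477, against 4138, 3659, 3017 and 2373 FPKM with DMSO (+0.80, adjusted p = 0.0343), and FTH1, ferritin heavy chain, rose by 0.57. Both have processed pseudogenes, so their share of the reads is uncertain, and FTL no longer passed under 8 of 16 alternatives. Outside the list, SLC48A1, a heme transporter, rose by 0.92, MGST1, microsomal glutathione transferase, by 0.58, and EPHX1, microsomal epoxide hydrolase, by 0.96. SLC48A1 and MGST1 were named after their values were seen. EPHX1 was the single member of 10 tested in the list of xenobiotic enzymes and exporters that passed.

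Not every NRF2 target on the list passed. HMOX1, heme oxygenase, was at 1.09, 1.71, 0.81 and 0.84 FPKM with GSK477, against 0.81, 0.67, 0.78 and 1.45 FPKM with DMSO, and its change of +0.17 did not pass (adjusted p = 0.905). SLC7A11, the cystine transporter, was the member that fell. It was at 0.63 and 0.95 FPKM with GSK477 on day 2 and 0.62 and 0.77 FPKM on day 4, against 1.04 and 0.74 FPKM with DMSO on day 2 and 2.07 and 2.19 FPKM on day 4. The groups overlapped on day 2 and did not on day 4. Of 9 tested genes of the aryl hydrocarbon receptor list, NQO1 rose and AHR, the receptor itself, fell by 0.59. CYP1B1, a classical target of that receptor, changed by −0.18 (adjusted p = 0.935).

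**Figure D2:**
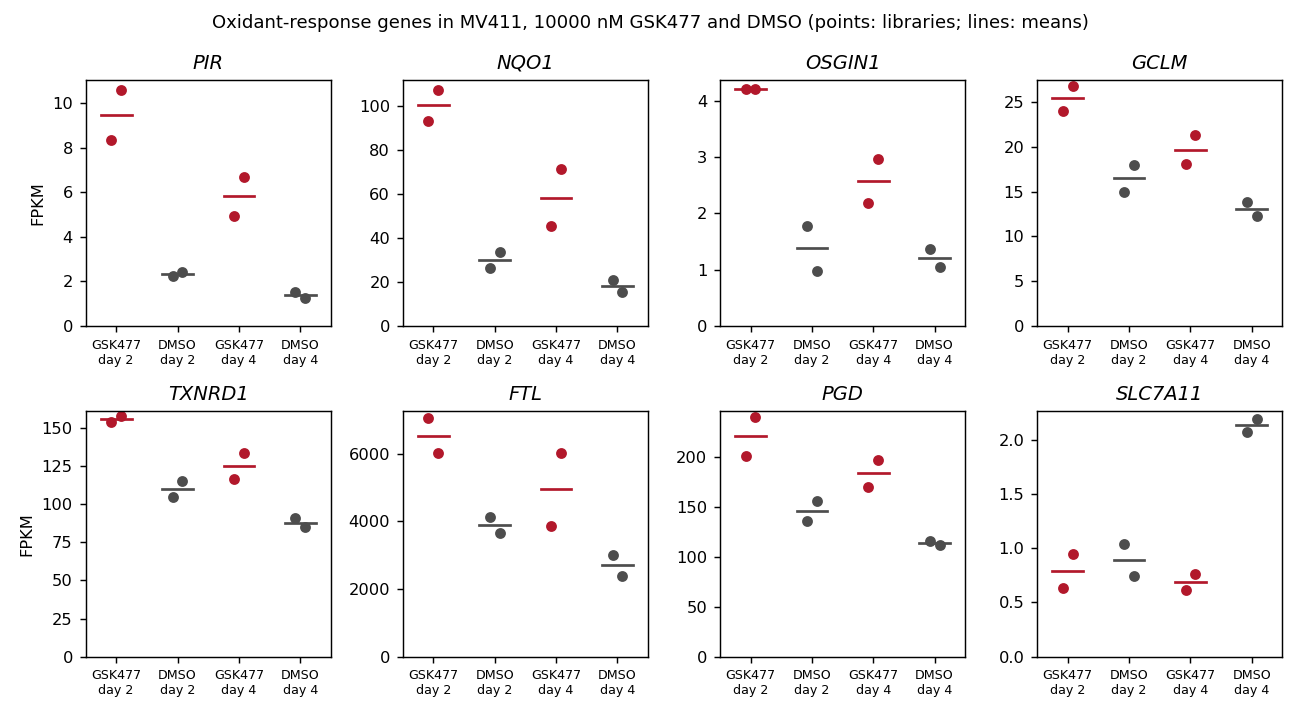
Level in FPKM of 8 oxidant-response genes in the GSK477 and DMSO libraries of MV411 by day, 1 point per library and a line at each group mean. For PIR, NQO1 and GCLM the GSK477 points lie above the DMSO points of the same day, with NQO1 at 93.3 and 107 FPKM against 26.4 and 33.7 FPKM on day 2, and SLC7A11 lies below them on day 4.

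The genes that fell were more numerous and of other kinds. Of the 51 called lower, 44 had both GSK477 libraries below both DMSO libraries on each day, as had 4.73% of all genes tested. All 4 GSK477 libraries lay below all 8 DMSO libraries of days 1 to 6 for 38 of the 51. The call was made on the libraries that give the 44, so that count follows largely from the call, and the 38 in part. Setting these counts beside the shares of all genes is thus no independent support for the decrease. Over all genes tested, all 4 GSK477 libraries lay below all 8 DMSO libraries for 289 (1.31%) and above them for 57 (0.259%). OCSTAMP, which in mouse takes part in fusion of osteoclast precursors, changed most among them. It was at 0.77, 1.15, 1.09 and 0.87 FPKM with GSK477, against 6.08, 5.37, 11.3 and 16.8 FPKM with DMSO, a change of −2.69 ± 0.25 (adjusted p = 8.79e-08).

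CLEC10A, a lectin receptor of macrophages and dendritic cells (chromosome 17, 7074537 to 7080307), was at 1.36 and 1.1 FPKM with GSK477 on day 2 and at 0.75 and 0.78 FPKM on day 4. Its DMSO libraries agreed closely, at 3.93 and 3.92 FPKM on day 2 and 4.17 and 4.15 FPKM on day 4. The groups were far apart on both days, and the change was −1.62 ± 0.14 (adjusted p = 1.5e-08). IGLC2, an immunoglobulin lambda constant gene, was at 1.11, 0.84, 1.08 and 1.02 FPKM with GSK477, against 5.57, 5.62, 6.95 and 6.63 FPKM with DMSO (−2.14). IGLC2 has near-identical neighbours in its locus, so its own share of the reads is uncertain.

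Other called genes included IL4I1, a secreted amino acid oxidase (−1.66), EGR3, an immediate early transcription factor (−1.57), GATA2, a transcription factor of blood stem cells (−1.55), and PDGFA, a growth factor (−1.47). GATA2 was the 1 called member of 16 tested in the KMT2A and stem-cell list. C6orf223 and the hypoxia-linked transcript MIR210HG changed by −2.0 and −1.77. The MIR210HG call was lost under 10 of 15 alternatives tried.

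Of 20 tested genes of the integrated stress response, which is the programme behind ATF4, 4 fell and 0 rose, with a median of −0.18. DDIT4, an inhibitor of mTORC1, was at 7.12, 7.20, 4.87 and 6.00 FPKM with GSK477, against 18.6, 10.0, 29.8 and 32.3 FPKM with DMSO (−1.65 ± 0.24, adjusted p = 8.22e-05). TRIB3, a pseudokinase induced by ATF4, changed by −1.27, ATF3 by −0.80 and CHAC1, which degrades glutathione, by −0.69. The list had 2 that fell without day 2 replicate 1 of GSK477 and also without day 4 replicate 1 of DMSO.

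In the list of inflammation and NF-kB targets, which holds chemokines, cytokines, adhesion molecules and signalling regulators, 5 of 21 tested genes fell and 1 rose. ICAM1, an adhesion receptor, was at 0.75, 1.36, 1.46 and 0.87 FPKM with GSK477, against 2.65, 2.68, 4.90 and 8.33 FPKM with DMSO (−1.56). CCL5 was at 9.46, 11.2, 8.45 and 8.06 FPKM with GSK477, against 15.7, 13.5, 31.4 and 37.7 FPKM with DMSO (−1.24), and CCL3, which has near-identical copies and is uncertain for that reason, changed by −1.32. TNFAIP3, an inhibitor of NF-kB signalling, and TRAF1 fell by 0.65 and 0.51, while TNFAIP2 rose by 0.59. The list had 3 that fell without day 2 replicate 1 of DMSO, without day 2 replicate 1 of GSK477, and with equal sums of FPKM, and 0 that rose without day 4 library b of GSK477 or day 4 replicate 2 of DMSO.

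All 26 tested genes of cholesterol and fatty acid synthesis had a change below 0, with a median of −0.39, and 6 of them fell. Over all genes, 11254 of 22007 had a change above 0. In THP1 and NOMO1 the medians of this list were −0.07 and −0.02, and 0 of its genes passed. HMGCS1, the synthase that begins the mevalonate pathway, was at 34.8, 28.8, 26.3 and 35.6 FPKM with GSK477, against 61.6, 53.2, 75.3 and 90.5 FPKM with DMSO (−1.13 ± 0.20, adjusted p = 9.96e-04). INSIG1, which holds the sterol sensor in the endoplasmic reticulum, fell by 0.74, and STARD4, a cholesterol carrier, by 0.74. The number that fell was 2 without day 2 replicate 1 of DMSO, day 4 replicate 2 of DMSO or day 4 library a of GSK477, and 3 without day 2 replicate 2 of GSK477.

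In the hypoxia and glycolysis list 4 of 25 tested genes fell and 0 rose. SLC2A3, the glucose transporter GLUT3, was at 4.67, 5.60, 5.00 and 5.12 FPKM with GSK477, against 8.00, 7.95, 14.8 and 17.1 FPKM with DMSO (−1.08). ALDOC, an aldolase, PFKFB4, a regulator of glycolysis, and VEGFA, the vascular growth factor, changed by −1.09, −0.82 and −0.66. In the list of FLT3, RAS and STAT5 output 3 of 21 fell, PHLDA1 by 0.95, ETV4 by 0.61 and PIM1 by 0.55.

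Monocyte genes changed in part. Of 25 tested, 4 fell, namely the scavenger receptor CD36 by 0.58, the chemokine receptors CX3CR1 and CCR2 by 0.56 and 0.52, and the growth factor receptor CSF1R by 0.38. In the granulocyte list of 13 tested, ELANE, neutrophil elastase, rose by 0.64. MNDA, a myeloid nuclear antigen gene named after its values were seen, rose by 0.75 and was at 4.04, 4.99, 4.40 and 5.10 FPKM with GSK477, against 3.07, 3.01, 1.97 and 2.24 FPKM with DMSO.

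No gene of the growth and cell cycle lists passed over both days. Of 30 mitosis genes, 30 S-phase genes, 16 replication-linked histone genes, 25 p53 targets, 21 MYC targets and 24 ribosomal protein genes tested, 0 rose and 0 fell. Their medians lay between 0.00 and 0.14. CDC20 and BIRC5, mitosis genes, changed by +0.15 and +0.13, with adjusted p = 0.833 and 0.869. The lists of antigen presentation (23 tested), oxidative phosphorylation (24), mitochondrial genome genes (13) and metallothioneins (9) also had 0 that passed. Without passing, some of these lists still moved to one side. All 13 mitochondrial genome genes had a change below 0, with a median of −0.22 over both days and −0.52 on day 4. Of the oxidative phosphorylation genes, 23 of 24 had a change above 0, with a median of +0.07 over both days and +0.16 on day 4. On day 2 neither list leaned to one side. There, 14 of 24 oxidative phosphorylation genes and 7 of 13 mitochondrial genome genes were above 0, with medians of +0.01 and +0.02.

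Many genes that fell climbed over the days in the DMSO cultures themselves. Over all genes tested, 1356 (6.16%) were higher and 1534 (6.97%) lower in DMSO of day 6 over day 1. Among the 51 called lower with GSK477, 44 (86.3%) were higher in DMSO of day 6, with a median of +1.74, and among the 283 that fell 186 (65.7%) were. DDIT4 in DMSO was at 7.43 and 14.9 FPKM on day 1, 18.6 and 10.0 FPKM on day 2, 29.8 and 32.3 FPKM on day 4 and 85.3 and 101 FPKM on day 6. OCSTAMP in DMSO was at 2.62 and 2.70 FPKM on day 1 and 20.6 and 26.2 FPKM on day 6. In GSK477 libraries of day 4, DDIT4 and OCSTAMP lay below their day 1 DMSO levels.

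Many of these genes also differed between libraries at the lowest dose. Comparing DAC with GSK032 at 3.2 nM on day 4, 6 genes were higher (0.0273%) and 165 lower (0.75%). Of the 51 called lower with GSK477, 33 (64.7%) were among those 165. DDIT4 was at 6.72 and 9.07 FPKM with 3.2 nM DAC, against 46.4 and 45.1 FPKM with 3.2 nM GSK032, and OCSTAMP at 3.28 and 5.79 FPKM against 21.6 and 19.0 FPKM. MAGEA4 was at 0.89 and 1.29 FPKM with 3.2 nM DAC and 0.99 and 0.64 FPKM with 3.2 nM GSK032. The part of culture time in the decrease with GSK477 was not tested. Of the NRF2 list, 3 of 19 genes passed as higher and 2 as lower in DMSO of day 6 over day 1, and 1 passed, as lower, between the low doses.

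**Figure D3:**
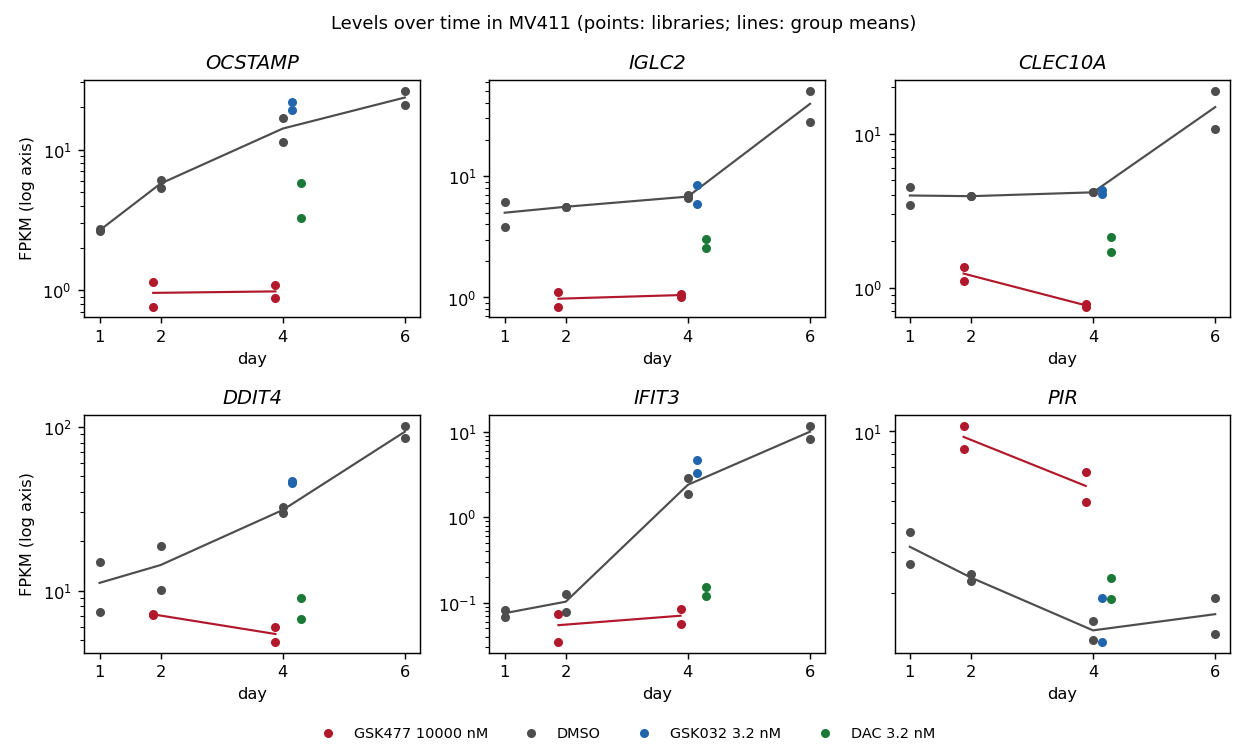
Level in FPKM (log axis) against day for 5 genes that fell and PIR, which rose, 1 point per library and lines through group means, with GSK477 on days 2 and 4, DMSO on days 1, 2, 4 and 6, and GSK032 and DAC at 3.2 nM on day 4, points of 1 day being set apart sideways. DMSO points of DDIT4 climb to 85.3 and 101 FPKM on day 6, while GSK477 points stay between 4.87 and 7.20 FPKM.

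The days differed in how many genes were called. On day 2, 3 genes were called higher (0.0136%) and 11 lower (0.05%), and 5 rose (0.0227%) and 24 fell (0.109%). On day 4, 7 were called higher (0.0318%) and 98 lower (0.445%), and 63 rose (0.286%) and 244 fell (1.11%). All 5 genes that rose on day 2, PIR, NQO1, OSGIN1, GCLC and TXNRD1, had the same sign on day 4, as had all 24 that fell. Of those that passed on day 4, 3 of 63 higher and 18 of 244 lower had also passed on day 2. Over all 22007 genes tested, the changes of the 2 days were almost unrelated (r = 0.0562). The called genes of day 2 numbered 7 without DMSO replicate 1 and 21 without GSK477 replicate 1. Those that fell on day 2 numbered 6 and 10 without DMSO replicate 1 or 2, 8 and 10 without GSK477 replicate 1 or 2, and 11 with equal sums of FPKM, and those that rose numbered 3 to 15 over the same omissions. On day 4, 133 and 106 fell without GSK477 library a or b, 129 without DMSO replicate 2, and 151 with equal sums. Those that rose on day 4 numbered 13 without library b and 32 and 17 without DMSO replicate 1 or 2.

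PIR rose by 1.81 on day 2 and 1.74 on day 4, a difference of −0.07 (95% interval −0.62 to 0.48, adjusted p = 1), and NQO1 rose by 1.73 and 1.64. The median of the NRF2 list was +0.49 on day 2 and +0.51 on day 4. The interferon list moved otherwise: its median was −0.03 on day 2, where 0 of 43 passed, and −0.47 on day 4, where 17 fell. Without DMSO day 4 replicate 1, and also without GSK477 library b, 10 fell on day 4.

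Tested directly, the effect of day 4 minus that of day 2 was called higher for 1 gene (0.00454%) and lower for 7 (0.0318%). The 7 were IFIT1, IFIT2, IFIT3, OAS1 and CXCL10 of the interferon list, and CYTIP and FAM129A. The call was lost under 8 of 15 alternatives for OAS1 and 8 of 14 for CXCL10, and for IFIT2 and IFIT3 in the 8 libraries alone. The 1 gene called higher was above 0 only in the day 2 DMSO libraries, so the filter on low values fixed its test. IFIT3, which binds viral RNA in a complex with IFIT1, was at 0.03 and 0.07 FPKM with GSK477 on day 2 and 0.06 and 0.08 FPKM on day 4. In DMSO it was at 0.08 and 0.07 FPKM on day 1, 0.13 and 0.08 FPKM on day 2, 2.92 and 1.90 FPKM on day 4 and 8.37 and 11.9 FPKM on day 6. The gene was thus near 0 in both groups on day 2, and of the 2 groups only DMSO rose above 1 FPKM on day 4. The change was −0.12 on day 2 and −2.33 on day 4. Of the interferon list, 36 of 43 tested were higher in DMSO of day 6 over day 1 (83.7%).

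**Figure D4:**
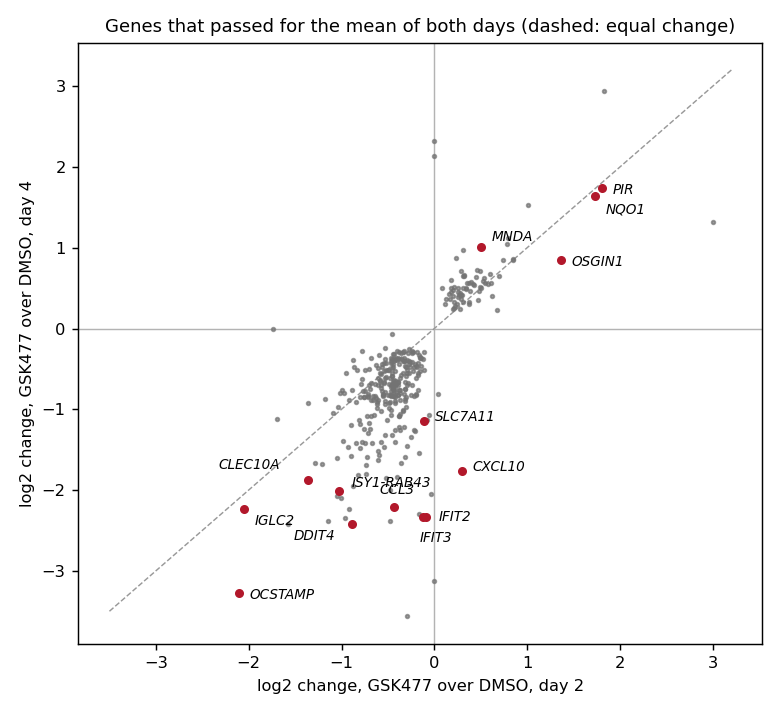
Log2 change with GSK477 on day 4 against that on day 2, 1 point per gene that passed over both days, with the diagonal for equal change. Genes were chosen by the mean of the 2 plotted changes, so their likeness between days follows in part from the choice. The changes correlated with r = 0.729 over these 356 genes and 0.0562 over all 22007 tested. PIR and NQO1 lie near the diagonal at 1.81 and 1.74 and at 1.73 and 1.64, and IFIT3 lies at −0.12 on day 2 and −2.33 on day 4.

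Set against the related compound GSK032 at the same dose and day, 2018 genes were called higher with GSK477 (9.17%) and 2713 lower (12.3%). Rescaling the libraries to an equal sum of FPKM gave 1444 higher and 3358 lower, with the median of all genes at −0.16, and median-ratio scaling gave 1550 and 3098. A pair of direct comparisons was made, GSK032 and DAC, each with p-values adjusted over all genes. Against GSK032, germline genes were called lower for 31 of 33 tested, and interferon genes for 39 of 43. Germline genes low with both GSK477 and DMSO, such as PNMA5, passed the filter only through groups where they were high, GSK032 among them. The germline count is thus in part fixed by the filter. The interferon list holds IFI27 and was chosen with earlier results of these data known, so its count is no independent support. IFI27 was at 1.51 and 0.62 FPKM with GSK477, against 357 and 318 FPKM with GSK032 (−7.81). It was picked for its response to GSK032, so this difference follows from the choice. DAZL, a germ-cell RNA-binding protein gene, differed by −7.03.

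Replication was on the other side. All 30 mitosis genes, 30 S-phase genes and 16 histone genes were called higher with GSK477 than with GSK032. HIST1H4L, a histone H4 gene, was at 1287 and 1458 FPKM with GSK477, against 92.7 and 95.2 FPKM with GSK032 (+3.86). Histone genes have near-identical copies, so single members are uncertain. PHGDH, the first enzyme of serine synthesis, was at 44.9 and 50.3 FPKM with GSK477, against 3.22 and 3.96 FPKM with GSK032 (+3.56). PIR was at 4.95 and 6.68 FPKM with GSK477, against 2.47 and 2.89 FPKM with GSK032 (+0.98, adjusted p = 8.05e-05), and NQO1 was higher by 0.83 (adjusted p = 0.00654). OSGIN1 differed by +0.42, with an interval of −0.13 to 0.97 that includes 0.

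Against DAC at 10000 nM, 3155 genes were called higher with GSK477 (14.3%) and 2699 lower (12.3%). This split depends on scaling: equal sums of FPKM gave 5562 higher and 1586 lower, with the median of all genes at +0.32, and median-ratio scaling gave 2293 and 3433. All 30 mitosis genes, 27 of 30 S-phase genes and all 16 histone genes were called higher with GSK477, while 11 of 33 germline genes and 22 of 43 interferon genes were called lower. The germline count is again in part fixed by the filter on low values. H19, an imprinted noncoding RNA, was at 0.33 and 0.14 FPKM with GSK477, against 71.8 and 40.7 FPKM with DAC (−6.23).

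The NRF2 list was split against DAC, with 6 of 19 genes passing as higher with GSK477, 8 as lower, and a median difference of −0.03. Over all 22007 genes tested, 6854 passed as higher and 5313 as lower. The list's count of higher genes was near that share and does not set the list apart. The split of the list and the smaller differences below also depend on scaling. Against DAC the median of all genes was +0.315 with equal sums of FPKM and −0.115 with median-ratio scaling. TXNRD1 was at 116 and 133 FPKM with GSK477, against 75.2 and 56.7 FPKM with DAC (+0.93), and GSR was higher by 0.99. HMOX1 was at 0.81 and 0.84 FPKM with GSK477, against 70.1 and 36.0 FPKM with DAC (−5.26), OSGIN1 was lower by 2.14 on the log2 scale and FTH1 by 1.66. PIR was at 4.95 and 6.68 FPKM with GSK477, against 11.3 and 8.74 FPKM with DAC (−0.74, adjusted p = 0.0015). NQO1 was at 45.2 and 71.4 FPKM with GSK477, against 119 and 58.2 FPKM with DAC. Those libraries overlapped, and the difference of −0.55 did not pass (adjusted p = 0.0655). GSK862 was given at 1000 nM, so its levels are given without a comparison: PIR was at 2.24 and 2.21 FPKM and NQO1 at 23.3 and 29.4 FPKM on day 4.

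GSK477 at the same dose and days was also given to THP1 and NOMO1, whose tables were normalised separately, so changes are set side by side without a test between lines. In THP1 88 genes rose (0.379%) and 121 fell (0.521%), and in NOMO1 264 rose (1.27%) and 212 fell (1.02%). With equal sums of FPKM, 12 rose and 7 fell in THP1, and 62 rose and 56 fell in NOMO1. With a replicate block 171 rose and 222 fell in THP1, and 362 fell in NOMO1. Leaving out day 4 replicate 2 of GSK477 gave 74 that fell in THP1. In NOMO1, 117 to 159 rose and 116 to 129 fell without day 4 replicate 2 of GSK477, day 2 replicate 1 of GSK477, or replicate 2 of DMSO on either day. PIR, NQO1 and OSGIN1 rose in both, PIR by 0.99 in THP1 and 0.61 in NOMO1, NQO1 by 1.05 and 1.1, and OSGIN1 by 1.09 and 0.58. These held under the 10 alternatives tried in each line, equal sums among them, except OSGIN1 in NOMO1, which no longer passed in 3. NQO1 in THP1 was at 70.9, 79.7, 51.9 and 52.9 FPKM with GSK477, against 32.4, 35.8, 24.8 and 28.1 FPKM with DMSO. In NOMO1 it was at 67.3, 71.9, 66.0 and 64.7 FPKM with GSK477, against 29.0, 33.6, 31.8 and 30.5 FPKM with DMSO, and the groups did not overlap in either line.

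Of the NRF2 list genes tested both in MV411 and in the other line, 11 rose in THP1 and 10 in NOMO1 and 0 fell in either, with medians of +0.40 and +0.38. Of the 73 genes that rose in MV411, 72 were tested in THP1, where 24 also rose (33.3%) and 0 fell, and 71 in NOMO1, where 11 rose (15.5%) and 1 fell.

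Of the 283 genes that fell in MV411, 252 were tested in THP1, where 26 fell (10.3%) and 0 rose, and 255 in NOMO1, where 16 fell (6.27%) and 13 rose. OCSTAMP was below the filter in THP1 and changed by −0.08 in NOMO1 (adjusted p = 0.984), and DDIT4 changed by −0.20 and +0.41 without passing. Interferon genes had medians of −0.09 in THP1 and −0.06 in NOMO1, where 0 and 1 fell. In NOMO1, 6 genes of the inflammation list rose. CCL3 in NOMO1 was at 11.0, 14.0, 29.5 and 62.0 FPKM with GSK477, against 8.44, 5.97, 18.0 and 15.7 FPKM with DMSO (+1.04, adjusted p = 0.00426), whereas it changed by −1.32 in MV411.

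**Figure D5:**
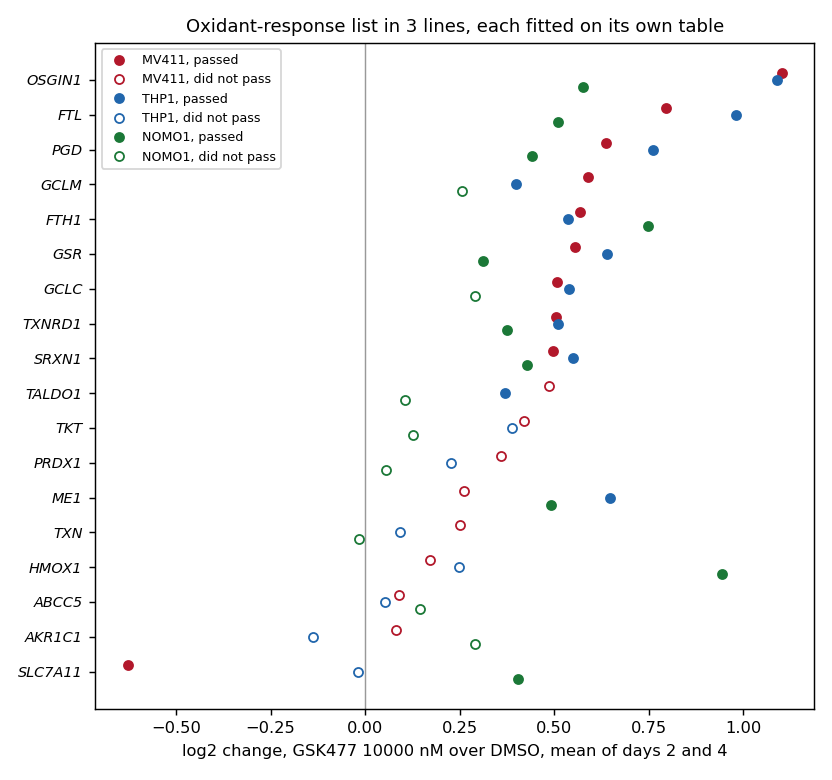
Log2 change with GSK477 over DMSO, mean of days 2 and 4, for tested genes of the NRF2 list in MV411, THP1 and NOMO1, with filled points for genes that passed and open points for those that did not. Most points lie above 0, OSGIN1 at 1.1, 1.09 and 0.58, while SLC7A11 lies at −0.63 in MV411 and 0.41 in NOMO1.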

How the data were processed

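Total RNA of MV411, THP1 and NOMO1 cells was sequenced, 52 libraries per line. Per the submitters' processing notes, Salmon 0.12.0 and DESeq2 were used with build hg38. The authors deposited FPKM values for 59939 genes in 1 table per line, and how they were computed from reads is not given in the sources used here. The authors also deposited log2 fold changes without p-values, used only for a check. Gene names come from GENCODE 29, which held 56511 identifiers (94.3%).

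Log2 values were computed from the deposited FPKM with a pseudocount of 0.5. Genes reaching 1 FPKM in 2 or more libraries were fitted per line with limma 3.58.1 in R 4.3.3, as 26 group means, which leaves 26 residual degrees of freedom. One estimate of spread per gene thus serves every group in that line. Moderated variances used an intensity trend, and Benjamini-Hochberg adjustment covered all genes of a contrast. The mean of the day 2 and day 4 differences equals the fold change of the 8 libraries with day as covariate. The procedure was tested on simulated data.

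The members and gene lists were chosen with earlier results of these data known. Genes were named by a rule: the largest called changes with non-overlapping libraries, from every list as many as 4 called genes (else 2 uncalled, as values), the methyltransferases, the largest differences between days and between compounds, and 5 genes that respond to GSK032. Others are said to be named after their values were seen, and further list members that passed are given as examples. Some list members enter the counts but are not reported singly here.

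No counts were available, so no counting interval is given. Low values of 9846 genes with 1 annotated transcript were compared with whole multiples of 1 fragment. In the 8 libraries 69.7 to 75.4% lay within 0.15 of a whole number, against 30% by chance, which makes the estimated scale approximate. Whether strand was used is not stated, so antisense and overlapping genes are uncertain. The day 4 GSK477 columns of MV411 carry the same header and could not be given replicate numbers. In day 2, GSK477 and DMSO libraries of the same number deviated together with r = 0.165 across 22007 genes, which is 1 value per gene over 2 pairs. Alternatives were other pseudocounts, a stricter filter, other scalings, the 8 libraries alone, leaving out each library, and a replicate block.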

Additional observations from a re-analysis of the deposited data

Results flagged for a closer look

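For 8 genes the effect of GSK477 on day 4 was called different from that on day 2 when the difference itself was tested with limma over 22007 genes. In 5 of them, all of the interferon list, the day 4 minus day 2 difference on the log2 scale was −2.24 for IFIT2 (adjusted p = 0.00149), −2.21 for IFIT3 (0.000145), −2.13 for OAS1 (0.0223), −2.07 for CXCL10 (0.0241) and −2.01 for IFIT1 (0.00149). The call was lost under 8 of 15 alternatives for OAS1, 8 of 14 for CXCL10, and in the 8 libraries alone for IFIT2 and IFIT3. These genes were low in both groups on day 2 and were expressed on day 4 in DMSO libraries, where their highest group mean was between 1.4 and 3.81 FPKM.

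CYTIP, which regulates cell adhesion, differed by −1.31 and was at 8.39 and 7.93 FPKM with GSK477 on day 2 and 5.29 and 6.03 FPKM on day 4, against 10.6 and 10.6 FPKM with DMSO on day 2 and 17.9 and 20.0 FPKM on day 4. FAM129A differed by −1.05 and was at 1.59 and 1.8 FPKM with GSK477 on day 4, against 4.36 and 4.27 FPKM with DMSO. ENSG00000222084, which has no symbol in the annotation, differed by +1.74. It was listed at 0 in all 4 GSK477 libraries and in DMSO of days 1, 4 and 6, and at 1.06 and 1.3 FPKM in DMSO of day 2. It passed the filter on low values through that group alone, so its test carries no information.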

How the results depend on the processing

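The 59 genes called over both days became 107 with a pseudocount of 0.1, 34 with a pseudocount of 1, 26 among genes with a mean of at least 5 FPKM, 95 with DMSO of days 1, 2, 4 and 6 as reference and 356 by adjusted p alone (both chosen after seeing the data), and 1 in the 8 libraries alone with day as covariate. The cause of that last loss was not tested. For day 2 (14 called) the counts were 25 with a pseudocount of 0.1, 6 with the mean filter, 9 with equal sums and 9 in the 8 libraries, 2 of them shared. For day 4 (105) they were 69 with a pseudocount of 1, 39 with the mean filter and 60 in the 8 libraries, 32 shared. For the difference between days (8) they were 1 with the mean filter, 5 with equal sums and 13 in the 8 libraries. With the mean filter, 2412 genes were called against GSK032 and 3580 against DAC. THP1 gave 4 with equal sums, against 7. Leaving out 1 library at a time gave 52 to 72 genes over both days, 7 to 21 on day 2, 77 to 114 on day 4, 4 to 13 for the difference between days, 3883 to 5366 against GSK032, 5131 to 6923 against DAC, 7 to 16 in THP1 and 12 to 29 in NOMO1. With a replicate block, 15 genes were called on day 2 over the 48 numbered libraries, 9 in THP1 and 23 in NOMO1. No such block could be fitted for day 4 of MV411. Of the values for named genes, 4821 kept direction and side of the threshold, 60 newly passed, 1 reversed (GCLC against DAC, +0.0057 with equal sums) and the rest no longer passed. Calls of MIR744, MIR210HG, ALDOC, CXCL10, OAS1, NFE2 and APOC1 were lost under several alternatives.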

Other observations

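A read-through transcript of neighbouring genes changed in all 3 lines. ISY1-RAB43 (hg38, chromosome 3, 129087575 to 129161036) was at 2.80, 3.28, 0.77 and 1.12 FPKM with GSK477 in MV411, against 6.72, 6.63, 6.21 and 4.44 FPKM with DMSO (−1.51). It fell by 0.86 in THP1 and by 1.24 in NOMO1. RAB43, whose exons it shares, rose by 0.49 in MV411 and 0.52 in THP1 and changed by +0.26 in NOMO1 without passing. The levels of both are uncertain because the counting could split shared sequence between them.

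Genes named for lymphoid cells were among those that fell in MV411. IGLL1, a surrogate light chain gene with close relatives, was at 3.17, 2.66, 2.19 and 2.92 FPKM with GSK477, against 9.07, 12.2, 7.59 and 4.87 FPKM with DMSO (−1.41). FCER2, a low-affinity IgE receptor, changed by −1.33, CD52, a glycoprotein of lymphocytes and monocytes, by −1.43, and TRAC, the T-cell receptor alpha constant gene, by −1.05. CD3E, a defining T-cell marker, was at 0 to 0.02 FPKM over the 8 libraries. Of other marker lists, 1 of 6 T-cell and NK-cell genes, 0 of 6 B-cell genes, 2 of 7 erythroid and megakaryocyte genes, 0 of 4 epithelial genes and 0 of 8 fibroblast genes fell, and 0 rose. HBB was listed at 0 in all 8.

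In NOMO1, TNF, IL1B, CXCL8, CCL3, CCL4 and ICAM1 of the inflammation list rose, CXCL8 by 1.18. CXCL8 in NOMO1 was at 139, 97.6, 194 and 278 FPKM with GSK477, against 72.2, 55.3, 90.7 and 76.4 FPKM with DMSO. CYP1B1 in NOMO1 rose by 1.00 (adjusted p = 9.64e-09) and HMOX1 by 0.94, and neither passed in MV411 or THP1.

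In the authors' deposited table of log2 fold changes, the day 2 column for GSK477 in MV411 matched the fold changes computed here, with r = 0.997 across 7479 genes with at least 10 FPKM, and 99.1% had the same sign. The day 4 column of the authors' deposited table did not, with r = 0.00782 and 44.2% of the same sign, and 19.2% of its entries were listed as 0. For NQO1 the authors' deposited table gives 1.73 on day 2 and −4.32 on day 4. Genes are not independent replicates, and these values describe the columns only.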
